A study of Mus musculus with 13 samples.

Results

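The 9 genes described here make, destroy and sense retinoic acid, and they were taken by symbol from the 34709 genes of a count table of mouse lower incisors. They are the degrading enzymes Cyp26a1, Cyp26b1 and Cyp26c1, the synthesising enzymes Aldh1a1, Aldh1a2 and Aldh1a3, and the receptors Rara, Rarb and Rarg. All 9 were found and all 9 passed the filter on low counts. The 13 RNA-seq libraries came from incisors of male mice at postnatal day 5, of which 5 were wild-type controls, 3 VDRgem mutants and 5 VDR-null mutants. VDRgem carries an altered vitamin D receptor that is known to answer synthetic gemini ligands but not calcitriol, and VDR-null animals lack a working receptor. The labels name no strain, litter or animal for a library and do not describe the construction of either allele, and the p-values cover only how these teeth vary.

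Retinoic acid is made from vitamin A in steps, the last of which is the oxidation of retinaldehyde by the Aldh1a dehydrogenases. It binds the receptors Rara, Rarb and Rarg, which sit on DNA with a retinoid X receptor, the same partner that the vitamin D receptor uses. The Cyp26 cytochromes P450 oxidise it, so that cells with and without the signal can lie side by side, and an excess or lack of the vitamin is known to disturb tooth formation and enamel.

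Cyp26a1 and Rarb are textbook direct targets of retinoic acid, and their promoters are shown beside those of Cyp26b1 and Cyp26c1 because the last pair are the members that passed the test in VDRgem against control. RefSeq windows (GRCm38.p6) from 250 bases before to 50 after each start were at hand for 8 members, in 13 windows. They were searched on both strands for the retinoic acid response element DR5, a direct repeat of the nuclear receptor half-site of the AGGTCA type with 5 bases between the copies. A match was found in Cyp26a1, on the opposite strand from 32 to 16 bases before the RefSeq start, and in Rarb, on the gene's strand from 53 to 37 bases before its RefSeq start. Of 32851 such windows of all genes, 0.0974% hold a DR5. No member window held the repeats with 1, 2 or 3 bases between the copies (DR1, DR2 and DR3, the last being the vitamin D response element), which occur in 0.222%, 0.268% and 0.0396% of all windows. Below are the bases before the start of each gene in GENCODE or RefSeq, whichever comes first, 5′ to 3′ on each gene's strand, with the DR5 match in capitals. For Cyp26a1, Cyp26b1 and Cyp26c1 alike this is the GENCODE start, which lies upstream of the RefSeq start. They lie at chr19:37697558-37697797 (plus strand) for Cyp26a1, chr6:84593909-84594060 (minus) for Cyp26b1 and chr19:37685430-37685580 (plus) for Cyp26c1. For Rarb only the element itself is given, chr14:16575513-16575529 (minus).
Cyp26a1: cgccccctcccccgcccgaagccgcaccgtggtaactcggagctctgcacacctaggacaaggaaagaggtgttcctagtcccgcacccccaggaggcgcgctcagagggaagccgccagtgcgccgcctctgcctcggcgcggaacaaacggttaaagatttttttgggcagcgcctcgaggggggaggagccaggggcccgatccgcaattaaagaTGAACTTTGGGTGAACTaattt
Rarb: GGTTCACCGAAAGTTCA
Cyp26b1: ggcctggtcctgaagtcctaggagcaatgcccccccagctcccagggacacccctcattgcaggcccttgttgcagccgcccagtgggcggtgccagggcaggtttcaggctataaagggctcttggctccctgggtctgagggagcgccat
Cyp26c1: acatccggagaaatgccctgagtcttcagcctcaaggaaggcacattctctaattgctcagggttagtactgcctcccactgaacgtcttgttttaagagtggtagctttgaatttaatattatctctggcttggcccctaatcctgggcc

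Levels are CPM, read counts scaled to a common library size, after TMM scaling, a correction for library composition. Total counts per library ran from 20405188 to 87783466. All enamel and dentin markers of the lists were detected in every library, as were the dental mesenchyme markers other than Barx1, which was at 0 in VDR-null 2. The 7 ameloblast markers summed to between 14658 and 75251 CPM and the 5 odontoblast markers to between 56916 and 151968 CPM. Vdr itself was at 142 to 180 CPM in controls, 107 to 205 in VDRgem and 204 to 281 in VDR-null, which says nothing of whether the transcript is intact and so is no check of the labels. The VDRgem libraries stood apart from the others and from each other. Of 14 oral keratinocyte markers, 12 were tested and 11 rose in VDRgem, and the 14 summed to 17195, 3981 and 322 CPM in VDRgem 1, 2 and 3 (control 4, at 551, lay above VDRgem 3), to 32.3 to 551 in controls and to 27.7 to 138 in VDR-null, with Ivl at 0 in VDRgem. All 15 cell cycle markers fell in VDRgem, where their sums of 419 to 493 CPM compare with 732 to 975 (controls) and 468 to 1038 (VDR-null), with none at 0. Of 10 dental papilla and follicle markers 3 rose and 3 fell in VDRgem, with sums of 4058 to 5449 CPM against 2547 to 3193 in controls, the largest part of it Postn. Of 9 dental epithelium markers 3 rose and 2 fell, with sums of 7978, 3366 and 1483 CPM in VDRgem 1 to 3 against 1085 to 1882. The largest part was Krt5 and Krt14, at 4252 and 3256 CPM in VDRgem 1. Shh stood at 5.06 to 13 CPM against 29.9 to 64.1, and Sfrp5 at 0.767 to 1.29 against 9.26 to 15.5. The part of these 4 lists in the results was not tested, except where a fit without a library or with the keratinocyte level is given. In whole teeth, fewer cells of a type and less RNA per cell cannot be told apart.

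Of the 9 members, 2 passed the test in VDRgem against control, Cyp26b1 higher and Cyp26c1 lower, where 8.62% of the 17837 genes tested passed. None passed in VDR-null against control, where 1.33% of all genes did. Between the mutants 3 passed, Cyp26b1 and Rara higher and Cyp26c1 lower in VDRgem, against 18.8% of all genes. Passing means an adjusted p under 0.05 in edgeR's quasi-likelihood test, with the Benjamini-Hochberg method applied to all tested genes. Higher calls made up 4.8% and lower calls 3.82% of tested genes in VDRgem, 0.678% and 0.656% in VDR-null, and 10.6% and 8.18% between the mutants. The median log2 fold change of the 9 members was -0.24 in VDRgem, -0.13 in VDR-null and -0.41 between the mutants, and that of all genes tested was 0.00, 0.01 and -0.02. The 2 comparisons with control share the same 5 control libraries.

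**Figure D1:**
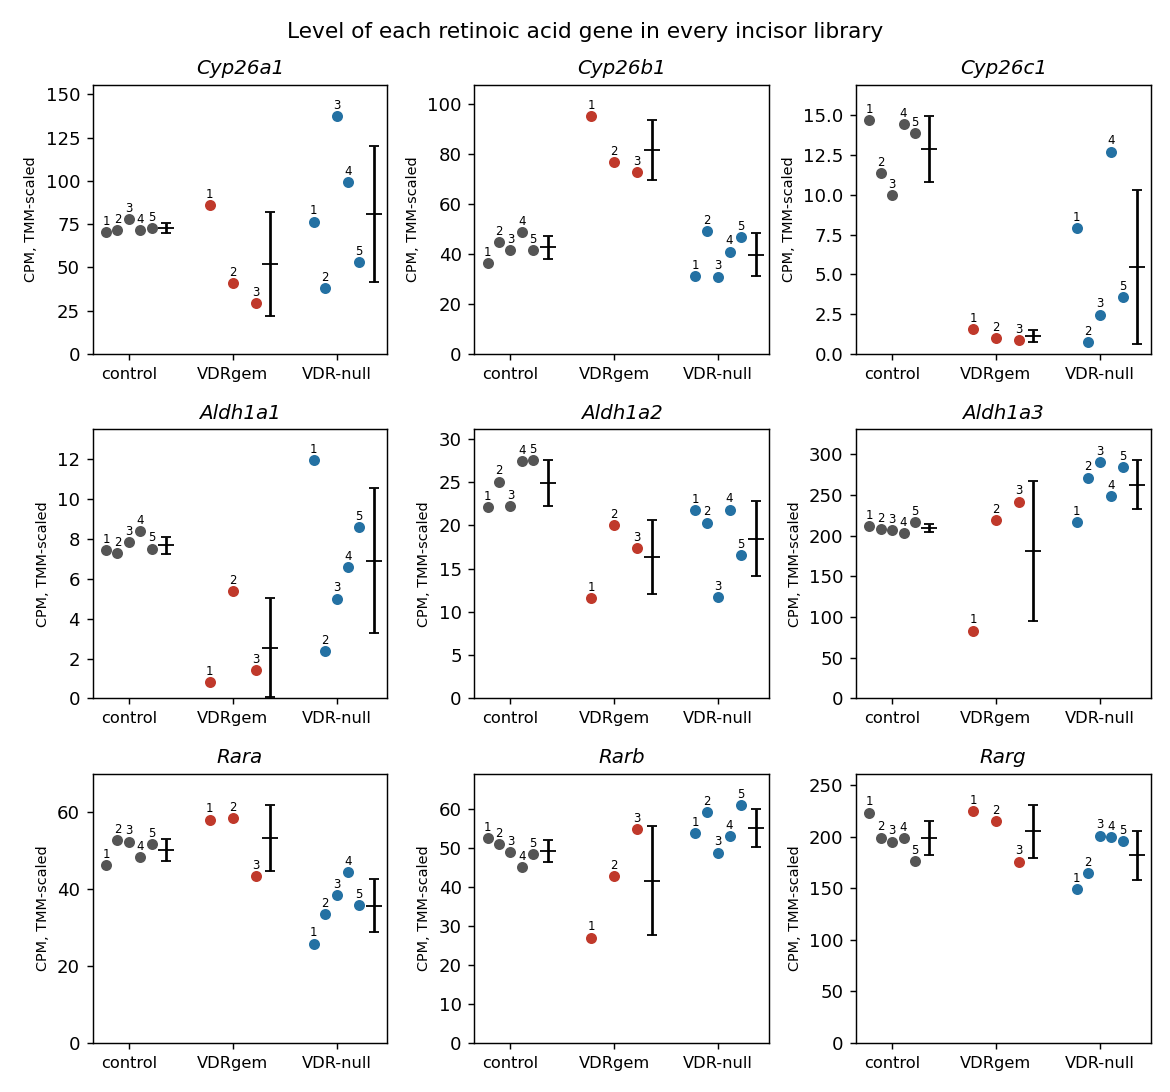
Level of each of the 9 genes in CPM (vertical axes, from 0) in every library, by group. Points are libraries with their replicate number, and the bar beside each group is the mean ± SD (n = 5, 3 and 5). Cyp26c1 lies near 1 CPM in all 3 VDRgem libraries, and VDRgem 1 stands apart for Aldh1a3 at 83.4 CPM.

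Cyp26c1, Cyp26a1 and Cyp26b1 remove retinoic acid by oxidation. Cyp26c1 (ENSMUSG00000062432) is a protein-coding gene on the plus strand of chromosome 19 from 37685581 to 37693398 in mm10. Cyp26a1 starts 4399 bases beyond its end, with no annotated gene between them among those counted. Cyp26c1 stood at 14.7, 11.4, 10.0, 14.4 and 13.9 CPM in controls 1 to 5. It stood at 1.55, 1.0 and 0.867 CPM in VDRgem 1 to 3, which rests on 81, 46 and 71 reads. All 3 VDRgem libraries lay below every control. The mean was 1.14 ± 0.362 CPM in VDRgem (SD, n = 3) and 12.9 ± 2.08 in controls (n = 5). Cyp26c1 fell by 3.50 on the log2 scale, or 11.3-fold (SE 0.61, edgeR adjusted p = 0.013). Without VDRgem 1 the fitted value was -3.79 and missed the threshold (edgeR adjusted p = 0.0689). Over all 24 alternatives its adjusted p ran from 2.67e-05 to 0.301, and 20 passed.

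In VDR-null incisors Cyp26c1 was uneven, at 7.89, 0.735, 2.46, 12.7 and 3.59 CPM in VDR-null 1 to 5. VDR-null 2 was as low as the VDRgem libraries and VDR-null 4 lay within the controls, so 4 of 5 lay below every control. The log2 fold change was -1.22 (SE 0.50, 95% interval -2.30 to -0.14, edgeR adjusted p = 0.174), and no alternative called it. Across these 5 libraries the summed cell cycle markers stood at 1030, 468, 612, 1038 and 795 CPM. The libraries with the lowest Cyp26c1, VDR-null 2 and 3, were also those with the lowest cell cycle level, and the part of the one in the other was not tested. Between the mutants Cyp26c1 was lower in VDRgem, with a log2 fold change of -2.28 (SE 0.62, edgeR adjusted p = 0.0308), although VDR-null 2 lay below all 3 VDRgem libraries. That call was lost without VDRgem 1, 2 or 3 (edgeR adjusted p = 0.0913, 0.0986 and 0.0697) and without VDR-null 1 or 4 (0.0632 and 0.0574), in a range of 0.00536 to 0.813 over its alternatives.

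Cyp26b1 (ENSMUSG00000063415) is found on chromosome 6 (minus strand), between 84571414 and 84593908. It stood at 36.4, 44.8, 41.7, 48.8 and 41.7 CPM in controls 1 to 5 and at 95.3, 76.7 and 72.7 CPM in VDRgem 1 to 3. Every VDRgem library lay above every control and every VDR-null library. The mean was 81.6 ± 12.1 CPM in VDRgem (SD, n = 3) and 42.7 ± 4.55 in controls (n = 5). Cyp26b1 rose by 0.93 on the log2 scale, or 1.91-fold (SE 0.16, edgeR adjusted p = 0.00906). Without VDRgem 1 the value was 0.80, and edgeR gave an adjusted p of 0.0608, in a range of 7.93e-06 to 0.286 over 24 alternatives, of which 20 passed. VDR-null libraries, at 31.0, 49.2, 30.9, 41.0 and 46.7 CPM, spanned the controls, with a log2 fold change of -0.10 (95% interval -0.39 to 0.19). Between the mutants Cyp26b1 was 2.05-fold higher in VDRgem (log2 1.04, SE 0.16, edgeR adjusted p = 0.00243), and this passed in 21 of 24 alternatives, among them all 13 that left out 1 library.

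Cyp26a1 (ENSMUSG00000024987), on chromosome 19 from 37697798 to 37701536, was the most even of the 3 in controls, at 70.4, 71.3, 77.8, 71.6 and 72.8 CPM. VDRgem 1 to 3 held 86.0, 40.8 and 29.4 CPM, and VDR-null 1 to 5 held 76.5, 38.2, 137, 99.2 and 53.0 CPM. Mutant libraries of both kinds lay above and below the controls. The log2 fold changes were -0.48 (95% interval -1.27 to 0.30) in VDRgem and 0.15 (-0.53 to 0.82) in VDR-null, and neither passed (edgeR adjusted p = 0.464 and 0.819). VDR-null 3, the highest, also had the highest skeletal muscle level, with 15 markers summing to 806 CPM against 6.13 to 77.4 in the other VDR-null libraries and 9.49 to 36.4 in controls. VDRgem 1, the highest of its group, held 299 CPM of these markers against 63.9 and 38.7 in VDRgem 2 and 3. The other VDR-null libraries did not keep this order. VDR-null 5, next in muscle markers at 77.4 CPM, had Cyp26a1 at 53.0 CPM, below every control. VDR-null 4 and 1, with 29.0 and 6.13 CPM of muscle markers, had Cyp26a1 at 99.2 and 76.5 CPM. No muscle marker was at 0 in a whole group, none of the 14 tested passed in VDR-null, and the part of muscle in the Cyp26a1 value was not tested.

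Per kilobase of exon, where levels of different genes can be set side by side, Cyp26a1 made up 67.5% to 74.4% of the summed Cyp26 level in controls, Cyp26b1 13.4% to 17% and Cyp26c1 10.9% to 16.6%. In VDRgem the Cyp26c1 share was 1.43% to 1.72% and the Cyp26b1 share 28.7% to 47.0%, neither of which overlapped the controls. In VDR-null the Cyp26c1 share ran from 1.46% to 11.2%. VDR-null 2 came closest to the VDRgem pattern, with 31.8% Cyp26b1 and 1.46% Cyp26c1. These shares restate the levels above on a common scale and were not tested.

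**Figure D2:**
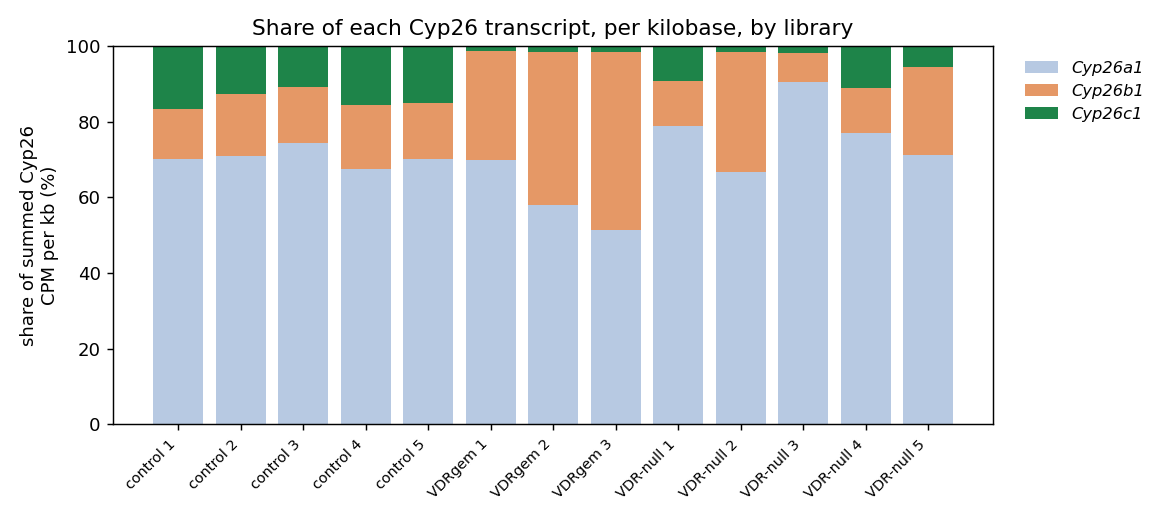
Share of each Cyp26 gene in the summed Cyp26 level per kilobase of exon (vertical axis, percent), 1 bar per library. The Cyp26c1 segment is 10.9% to 16.6% in controls and at most 1.72% in VDRgem, and it differs from library to library in VDR-null.

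Aldh1a3, Aldh1a2 and Aldh1a1 perform the last step of synthesis. Aldh1a3 (ENSMUSG00000015134, chromosome 7, 66390890 to 66427517, minus strand) was the main one, with 76.1% to 80.3% of the summed Aldh1a level per kilobase in controls. It stood at 211, 208, 206, 203 and 216 CPM in controls 1 to 5 and at 217, 271, 291, 249 and 284 CPM in VDR-null 1 to 5. All VDR-null libraries lay above every control, VDR-null 1 only just. The log2 fold change was 0.33 (SE 0.20, edgeR adjusted p = 0.357). VDRgem 1 to 3 held 83.4, 219 and 242 CPM, so the VDRgem group had 1 very low library and 2 above every control. Since all groups share their spread, VDRgem 1 bears on the VDR-null test as well. Without it Aldh1a3 passed in VDR-null, at 0.32 (edgeR adjusted p = 0.0442), in a range of 0.0442 to 0.557 over the alternatives. In VDRgem the value turned from -0.20 to 0.13 without VDRgem 1. Between the mutants it was -0.53 (edgeR adjusted p = 0.132), and it passed without VDRgem 3, at -0.78 (0.0424).

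Aldh1a2 (ENSMUSG00000013584, chromosome 9, 71215789 to 71296243, plus strand) was the only member for which all 8 mutant libraries lay below all 5 controls, a pattern that 0.488% of tested genes shared (0.712% had all mutants above). Controls 1 to 5 held 22.1, 25.1, 22.2, 27.4 and 27.5 CPM. VDRgem 1 to 3 held 11.6, 20 and 17.4 CPM, and VDR-null 1 to 5 held 21.8, 20.3, 11.7, 21.8 and 16.5 CPM. The gap is narrow, since VDR-null 1 and 4 lay just under control 1. The log2 fold changes were -0.61 in VDRgem (SE 0.20, edgeR adjusted p = 0.0815) and -0.43 in VDR-null (SE 0.17, edgeR adjusted p = 0.166), and neither passed. In VDRgem 4 of 24 alternatives passed, among them DESeq2 (adjusted p = 0.0322) and edgeR without VDR-null 3 (adjusted p = 0.0351), in a range up to 0.63, and in VDR-null none did.

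Aldh1a1 (ENSMUSG00000053279, chromosome 19, 20492715 to 20643465, plus strand) was the lowest of the 9 members per kilobase. It stood at 7.42, 7.29, 7.83, 8.37 and 7.51 CPM in controls, a narrow range. VDRgem 1 to 3 held 0.825, 5.39 and 1.42 CPM, all below every control. VDR-null 1 to 5 held 11.9, 2.37, 5.01, 6.60 and 8.60 CPM, on both sides of the controls. The log2 fold change in VDRgem was -1.61 (SE 0.52, 95% interval -2.72 to -0.50, edgeR adjusted p = 0.086). It passed without VDRgem 2, at -2.76 (edgeR adjusted p = 0.0157), and in limma-voom (adjusted p = 0.046), in a range up to 0.595. Between the mutants its value of -1.46 missed the threshold (edgeR adjusted p = 0.0736) and passed without VDRgem 2 (0.00977) or VDR-null 2 (0.0363). In VDR-null it was -0.15 (95% interval -1.09 to 0.79).

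Over all 13 libraries, mutants included, the receptors varied less than the enzymes. The SD of log2 CPM there was 0.17 for Rarg, 0.29 for Rarb and 0.34 for Rara, against 0.40 to 1.68 for the 6 enzymes. Among controls alone this order did not hold, with Aldh1a3 at 209 ± 5.01 CPM and Rarg at 198 ± 16.7 CPM (SD, n = 5). Rara (ENSMUSG00000037992, chromosome 11, 98927818 to 98974942, plus strand) stood at 46.3, 52.9, 52.4, 48.3 and 51.7 CPM in controls and at 25.8, 33.6, 38.5, 44.6 and 35.9 CPM in VDR-null 1 to 5. Every VDR-null library lay below every control. The log2 fold change was -0.50 (SE 0.13, edgeR adjusted p = 0.0577), just short of the threshold. It passed in 9 of 24 alternatives, among them DESeq2 (adjusted p = 0.00849) and the fits without VDRgem 1, VDRgem 3 or VDR-null 4 (edgeR adjusted p = 0.0462, 0.0375 and 0.0365), in a range up to 0.136. VDRgem 1 to 3 held 58.1, 58.6 and 43.5 CPM, around the controls. Rara was therefore 1.5-fold higher in VDRgem than in VDR-null (log2 0.58, SE 0.14, edgeR adjusted p = 0.0158), although VDRgem 3 lay below VDR-null 4. That call was lost without VDRgem 1 or 2 (edgeR adjusted p = 0.0937 and 0.0617), in a range of 0.00238 to 0.932.

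Rarb (ENSMUSG00000017491, chromosome 14, 16430839 to 16819156, minus strand) stood at 52.6, 51.1, 49.0, 45.2 and 48.6 CPM in controls. VDRgem 1 to 3 held 27.1, 42.9 and 55.0 CPM, and VDR-null 1 to 5 held 54.0, 59.2, 48.9, 53.2 and 61.2 CPM. The VDRgem libraries lay on both sides of the controls, and 4 of 5 VDR-null libraries lay above them. The log2 fold changes were -0.24 (edgeR adjusted p = 0.399) and 0.17 (0.506), and -0.41 between the mutants (0.0929). Without VDRgem 3 the VDRgem values passed, at -0.49 against control (edgeR adjusted p = 0.0491) and -0.64 against VDR-null (0.00855). Its exons overlap those of Top2b on the other strand, and since the strand setting of the counting is not given, some of these reads may not be its own. With scaling by library totals it also passed between the mutants, at -0.57 (edgeR adjusted p = 0.0343, in a range of 0.00855 to 0.983). The promoter windows of Cyp26a1 and Rarb hold the DR5 shown above, and neither gene passed in the fit reported here.

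Rarg (ENSMUSG00000001288, chromosome 15, 102234938 to 102257517, minus strand), the most abundant receptor per kilobase, lies 4.32 Mb from Vdr on the same chromosome. It stood at 223, 199, 195, 199 and 176 CPM in controls, 224, 215 and 176 CPM in VDRgem and 149, 165, 201, 199 and 196 CPM in VDR-null. The 3 groups overlapped. The log2 fold changes were 0.05 (95% interval -0.20 to 0.30) in VDRgem and -0.13 (-0.34 to 0.09) in VDR-null.

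**Figure D3:**
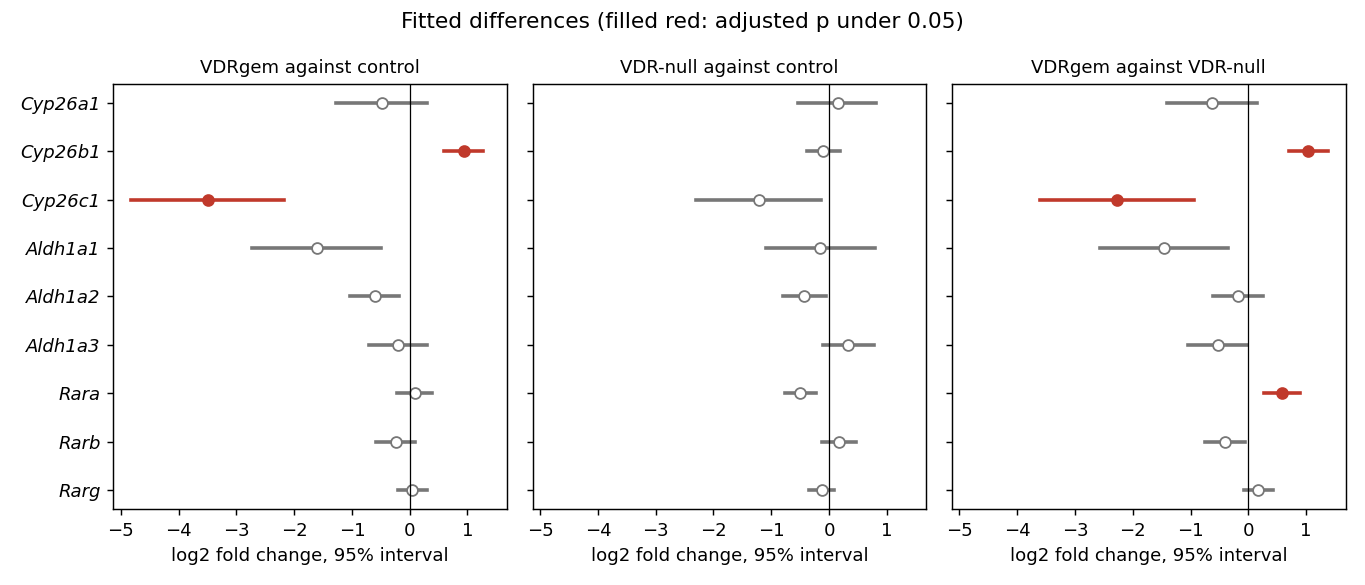
Fitted log2 fold change (horizontal axis) of each gene with its 95% interval in the 3 comparisons. Filled red points passed an adjusted p of 0.05. Cyp26c1 lies at -3.50 and Cyp26b1 at 0.93 in VDRgem against control, and no gene is filled in VDR-null against control.

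Counted by library ranges, 4 members did not overlap between VDRgem and controls (Cyp26b1 above, Cyp26c1, Aldh1a1 and Aldh1a2 below), where 19.3% of tested genes did not. By direction, 9.01% of tested genes lay above and 10.3% below. Between VDR-null and controls 3 did not overlap (Aldh1a3 above, Aldh1a2 and Rara below), where 7.09% of tested genes did not, 3.91% above and 3.18% below. Between the mutants 1 did not overlap (Cyp26b1, higher in VDRgem), where 18% of tested genes did not, 9.17% higher and 8.84% lower. In VDR-null 0 members passed in edgeR, 0 in limma-voom and 1 in DESeq2, where 238, 248 and 1559 of all genes passed. In edgeR 3 members had an unadjusted p under 0.05 with an absolute log2 fold change over 0.3, as had 13.2% of tested genes. Per kilobase of exon the control order was Rarg and Aldh1a3 at 46.6 and 45.3, Cyp26a1 at 36.7, Rara at 11.5, Aldh1a2 at 11, Rarb at 9.36, Cyp26b1 at 7.97, Cyp26c1 at 7.37 and Aldh1a1 at 1.56 CPM per kilobase. Rarg and Aldh1a3 overlapped in range, as did each neighbouring pair from Rara to Cyp26c1. In VDRgem Cyp26b1 stood at 15.2 ± 2.25 CPM per kilobase (SD, n = 3), above the range of Rara. Cyp26c1 stood at 0.655 ± 0.207, within the range of Aldh1a1.

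Both calls in VDRgem were lost without the library with the highest keratinocyte level. With VDRgem 1 left out, Cyp26c1 and Cyp26b1 kept their direction and their approximate size but missed the threshold, and only 66 of all genes passed. With the keratinocyte level as a covariate the values were -4.39 for Cyp26c1 and 0.68 for Cyp26b1 (edgeR adjusted p = 0.22 and 0.274), and 0 of all genes passed. Because this level nearly follows the VDRgem group, the loss of these calls does not test its part in them. Without both VDRgem 1 and 2 the values were -3.90 and 0.76 (edgeR adjusted p = 0.301 and 0.286), in a fit that assumes the lone VDRgem library varies like the other groups.

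**Figure D4:**
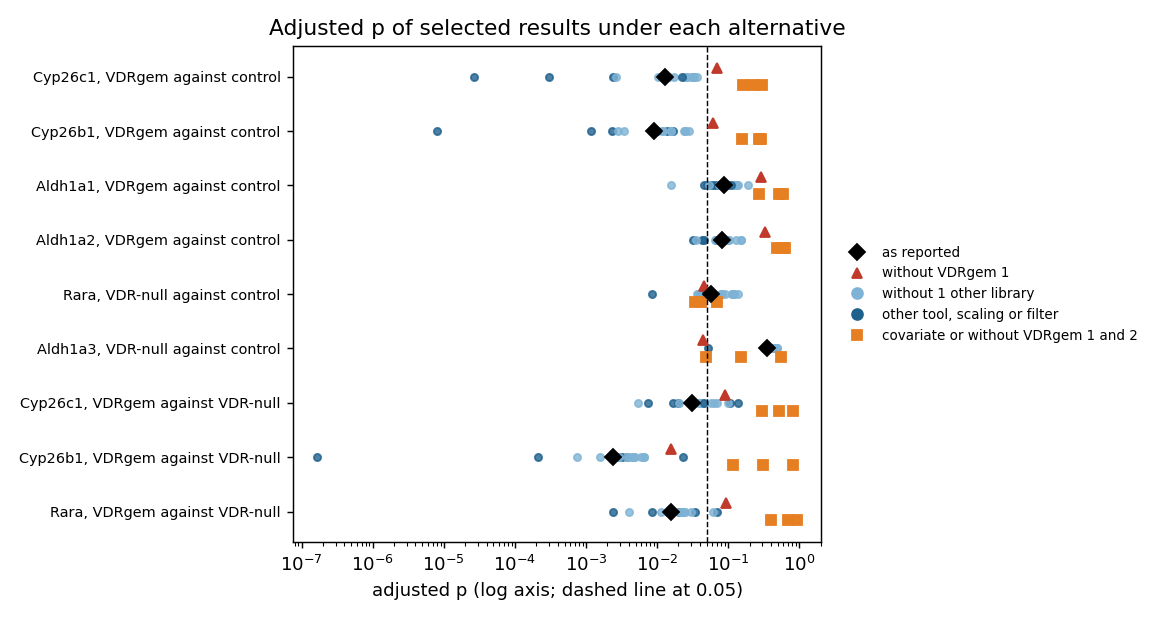
Adjusted p (horizontal log axis, dashed line at 0.05) of 9 selected results as reported (black) and under each alternative. Cyp26b1 between the mutants stays left of the line for every single library left out. The fits with a covariate (the keratinocyte level or 1 surrogate variable) or without VDRgem 1 and 2 lie right of it for each VDRgem result.

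Genes with profiles most like those of the 3 most variable members were found by the mean absolute difference between centred log2 CPM over the 13 libraries. For Cyp26c1 these were Usp44, a deubiquitinase, at a difference of 0.437, Sfrp5, a secreted Wnt antagonist (0.450), Lypd1 (0.452), Krt18, a keratin of simple epithelia (0.459), and Pcp4, a calmodulin-binding protein (0.512), where the median tested gene differed by 1.5. Sfrp5 is also on the list of 9 dental epithelium markers, of which 3 rose and 2 fell in VDRgem. It stood at 14.7, 15.2, 9.26, 15.5 and 13.6 CPM in controls, 0.767, 1.21 and 1.29 in VDRgem and 10.9, 1.11, 5.82, 11.4 and 9.59 in VDR-null. Like Cyp26c1 it was low in all 3 VDRgem libraries and in VDR-null 2. In VDR-null 3 Cyp26c1 and all 5 of these genes also lay below every control, Sfrp5 less far than Lypd1, at 2.83 CPM. VDR-null 5 divided the set, with Lypd1 at 18.1 CPM, inside its control range of 12.2 to 20.1, and Krt18 at 3.05 CPM, below its control range of 5.78 to 9.23. For Aldh1a1 the nearest were Plppr1 (0.229), the transcription factor Sall3 (0.252), the glutamate receptor subunit Grik1 (0.308), Galnt13 (0.318) and Gm973 (0.323), with a median over tested genes of 0.87. For Cyp26a1 they were Oc90, a protein of inner ear mineral (0.207), Gm14137 (0.222), the collagen Col22a1 (0.234), the growth factor Fgf16 (0.251) and Frem2, a basement membrane protein (0.253), with a median of 0.51. These are descriptions of likeness and carry no test.

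**Figure D5:**
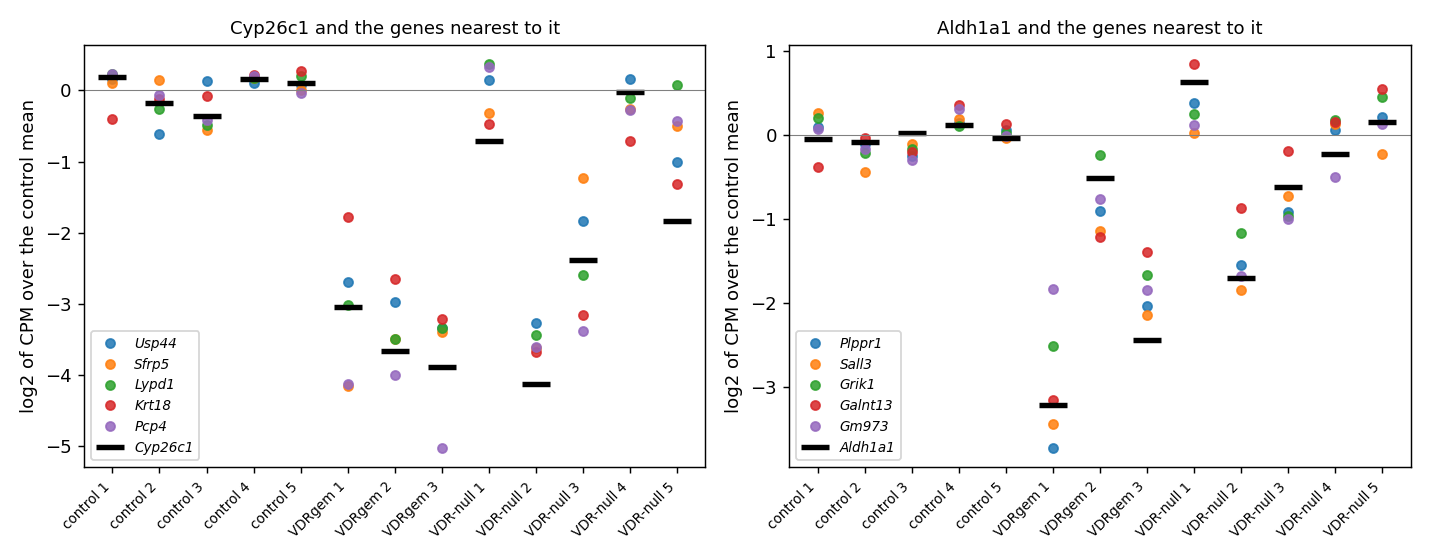
Log2 of CPM over the control mean (vertical axis) in every library for Cyp26c1 and for Aldh1a1 (black bars) and the 5 genes nearest to each (coloured points). The Cyp26c1 set is low in VDRgem 1 to 3 and VDR-null 2, and also lies below every control in VDR-null 3. Aldh1a1 and 4 of its 5 nearest genes are lowest in VDRgem 1, with Gm973 lowest in VDRgem 3.

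Other genes of retinoid handling were read from 6 lists with 72 entries, of which 51 were tested. In VDRgem against control 9 rose and 2 fell (21.6%, beside 8.62% of all genes), with a median log2 fold change of 0.12. In VDR-null against control 0 rose and 1 fell (1.96%, beside 1.33%), and between the mutants 14 were higher and 3 lower in VDRgem (33.3%, beside 18.8%). Among 9 carriers tested, the cellular retinol carrier Rbp2 and the fatty acid and retinoic acid carrier Fabp5 rose in VDRgem, and Crabp1, which binds retinoic acid in the cytosol, fell. Rbp2 stood at 9.34, 3.06 and 0.207 CPM and Fabp5 at 130, 39.5 and 18.2 CPM in VDRgem 1, 2 and 3, in the order of the keratinocyte markers. In VDRgem 3 both lay within their control ranges, 0 to 0.70 CPM for Rbp2 and 14.6 to 21.9 CPM for Fabp5. Crabp1 stood at 34.6, 52.0 and 35.4 CPM in VDRgem, below its control range of 60.7 to 91.3, and fell by 0.91 on the log2 scale (SE 0.25, edgeR adjusted p = 0.0462). Crabp2, the other cytosolic retinoic acid binder, stood at 50.5 to 58.9 CPM in VDRgem and 47.9 to 51.8 in controls, and did not pass.

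Among 13 genes that interconvert retinol and retinaldehyde, Sdr16c5 and Adh7, both retinol-oxidising enzymes, rose in VDRgem and none fell. Sdr16c5 rose by 3.71 on the log2 scale (SE 0.58, edgeR adjusted p = 0.0076), from 0.161 to 0.473 CPM in controls to 8.79, 3.32 and 1.10 CPM in VDRgem 1, 2 and 3. Adh7 rose by 0.78 (SE 0.18, edgeR adjusted p = 0.0208), to 4.2, 2.93 and 2.6 CPM from 1.70 to 2.03 CPM. Both were again highest in VDRgem 1. Rdh10, the main retinol dehydrogenase of embryos, was at 35.6, 66.6 and 60.7 CPM in VDRgem against 60.3 to 72.6 CPM in controls, and like Aldh1a3 and Rarb it was lowest in VDRgem 1. It passed only between the mutants, where it was lower in VDRgem (log2 fold change -0.53, SE 0.16, edgeR adjusted p = 0.0426), as were Rdh11 (-0.43) and Akr1b3 (-0.41), while Sdr16c5, Adh7 and Adh1 were higher. Dhrs3, which turns retinaldehyde back to retinol and is itself a known retinoic acid target, was at 46.2 to 55.0 CPM in VDRgem, 40.1 to 56.4 in VDR-null and 44.7 to 53.9 in controls, and did not pass.

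Of 4 genes of ester storage and carotenoid cleavage tested, the hydrolase Lipe fell in VDRgem by 0.43 (SE 0.12, edgeR adjusted p = 0.0404), to 11.8 to 13.3 CPM from 15.2 to 18.6 CPM. It was at 9.89 to 14.3 CPM in VDR-null, also below every control (log2 fold change -0.41, edgeR adjusted p = 0.0577). The retinoid X receptors passed in neither mutant against control, and Rxra was higher in VDRgem than in VDR-null by 0.49 (SE 0.11, edgeR adjusted p = 0.00867), at 139 to 193 against 105 to 134 CPM. Of 13 cofactors 1 rose in VDRgem, the zinc finger protein Zfp423 (0.55, SE 0.16, edgeR adjusted p = 0.0473), a partner of retinoic acid receptors.

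Of 18 listed genes known to respond to retinoic acid in some tissues, 9 were tested. Of these, Rarres1, Rarres2, Meis2 and Egr1 rose in VDRgem and none fell. The median log2 fold change of the 9 was 0.56 beside 0.00 for all genes. Rarres1 was low everywhere, at 2.90, 0.814 and 0.818 CPM in VDRgem 1, 2 and 3 and 0.189 to 0.678 in controls. Meis2 stood at 16.1, 4.60 and 1.10 CPM in VDRgem 1, 2 and 3 and 0.273 to 1.41 in controls, so VDRgem 3 lay within the controls. Egr1 stood at 182, 218 and 39.9 CPM against 21 to 36.3 in controls. It is also an immediate early gene, and 7 of 12 immediate early and heat shock markers rose in VDRgem, summing to 664, 539 and 283 CPM in VDRgem 1 to 3 and to 194 to 272 in controls. The part of that list in the Egr1 result was not tested. Rarres2 was the most even, at 31.2, 24.7 and 27.3 CPM against 17.2 to 21.8 (0.56, SE 0.15, edgeR adjusted p = 0.0347). In VDR-null the only call was a fall of the repressor Hic1 by 0.73 (SE 0.14, edgeR adjusted p = 0.034), to 3.54 to 5.94 CPM from 6.98 to 9.55 CPM.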

How the data were processed

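RNA-seq was analysed in 13 lower incisor libraries. Per the labels' protocols, they were stranded poly-A libraries. The authors deposited whole-number counts per Ensembl gene without scaling. The tools were bcl2fastq 2.20.0.422, STAR 2.5.3a and HTSeq 0.6.1p1 on mm10, per the submitters' processing notes. No source used here states the annotation release, the counting mode or the strand setting, so reads over genes on opposite strands cannot be separated. Every column matched a library by title, and chi-square per degree of freedom was at least 15.2 for any pair of libraries, so none was a copy.

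Symbols, coordinates and exonic lengths came from GENCODE M21 (34618 of 34709 genes matched), and promoter sequences from RefSeq. The count test was that of edgeR 4.0.16, run under R 4.3.3 (TMM, filterByExpr with a minimum count of 10, 17837 genes kept). All 13 libraries entered 1 quasi-likelihood fit by group without covariates, and the test was tried on simulated data. Level per kilobase is CPM over the union of exons, and log2 CPM uses a prior count of 2. Intervals are 95%, from the SE and the fit's degrees of freedom.

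The members, lists and rules were chosen with earlier results of these data known. All members are named. List genes are named where they passed in any comparison, and up to 2 others per list by level (some only counted, and some not reported here). The 24 alternatives were other tools (DESeq2 1.42.0, limma-voom 3.58.1), scalings, filters, samples and covariates, 1 surrogate variable (sva 3.50.0) and each library left out. The selection stated with the series (unadjusted p under 0.05, absolute log2 fold change over 0.3) was also counted. Figures were drawn with matplotlib 3.10.9.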

Additional observations from a re-analysis of the deposited data

How the results depend on the processing

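Among the values of single genes under alternatives, 568 kept their direction and side of the threshold, 27 lost and 25 gained a call, and 28 changed sign, none of them a called value. Counts of members called were 2, 0 and 3 in VDRgem, in VDR-null and between the mutants, where 1537, 238 and 3346 of all genes passed. Leaving out 1 library gave 0 to 3, 0 to 2 and 1 to 4. The counts of all genes then ran from 66 to 2021, 6 to 685 and 434 to 4610. In VDRgem the member count was 0 without VDRgem 1 (66 of all genes passed), 0 with the keratinocyte covariate (0 of all genes) and 0 with 1 surrogate variable (8). By the stated selection it was 4, beside 19% of all genes. In VDR-null it was 1 with library totals (347 of all genes), DESeq2 (1559), a mean of at least 1 CPM (423), only the groups compared (703) and 1 surrogate variable (1129). By the stated selection it was 3, beside 13.2% of all genes. Between the mutants it was 5 with library totals (4926 of all genes), 1 with only the groups compared (753), 0 with the covariate (11) and 0 with the surrogate variable (53). By the stated selection it was 6, beside 27.5% of all genes.

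Sign changes fell on values that had not passed, the largest being -0.53 for Aldh1a3 and -0.41 for Rarb between the mutants. Scaling by library totals shifted the median of all genes in VDRgem by -0.168 and gave -0.087 for Rara and -0.12 for Rarg. In VDRgem, without both VDRgem 1 and 2, with the covariate and with the surrogate variable, the values were 0.20, 0.39 and 0.31 for Aldh1a3, -0.22, -0.29 and -0.11 for Rara, 0.15, 0.31 and 0.17 for Rarb and -0.19, -0.29 and -0.11 for Rarg. With 1 library left out they ran from -0.46 to 0.13 for Aldh1a3 and from -0.035 to 0.15 for Rarg, changing sign without VDRgem 1. In VDR-null, Cyp26a1 was -0.011 with limma-voom and, with 1 library left out, -0.12 (without VDR-null 3) to 0.31, and Aldh1a1 ran from -0.45 to 0.055 (without VDR-null 2). Between the mutants, Aldh1a2 ran from -0.33 to 0.0029 (without VDRgem 1) with 1 library left out and was 0.069 with the covariate and 0.17 with the surrogate variable, Aldh1a3 was 0.19 and 0.026, and Rarb 0.25 and 0.049, with those 2, and Rarg was -0.056 without both VDRgem 1 and 2 and -0.22 with the covariate. The cause was not tested. No paired analysis was possible because the labels give the libraries no shared replicate numbers.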

Other observations

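Among the 5 VDR-null libraries, VDR-null 1 held the lowest value of several receptor-side genes at once. Rara stood there at 25.8 CPM, Rarg at 149, Rxra at 105, Rxrb at 45.3, Zfp423 at 6.79, Hic1 at 3.54 and Tgm2, a transglutaminase known to respond to retinoic acid, at 31.2 CPM. The other VDR-null libraries held 33.6 to 44.6, 165 to 201, 113 to 134, 54.3 to 64.6, 9.94 to 12.0, 4.52 to 5.94 and 41.1 to 49.8 CPM. This library also had the lowest summed odontoblast, osteoblast and endothelium markers of all 13, at 56916, 2851 and 535 CPM, where the other VDR-null libraries held 76629 to 151968, 3338 to 4949 and 600 to 698 CPM. The part of these in the values above was not tested. The same library had the highest Aldh1a1 of all 13, at 11.9 CPM. These genes were picked after their values were seen, and no test was made.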
